A study of Homo sapiens with 11 samples.

Results

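Neuroendocrine miRNAs are enriched in neurons and in hormone-secreting cells. Those followed here were hsa-miR-7-5p, hsa-miR-7-1-3p, hsa-miR-375, hsa-miR-488-3p and hsa-miR-488-5p, which were taken by name from the miRNA column of the deposited count tables and make up 5 of the 2576 mature miRNAs listed. They were measured by small RNA sequencing in SH-SY5Y, a clonal neuroblastoma subline of SK-N-SH, in 11 libraries. Cells of all 4 groups were differentiated with 10 µM all-trans retinoic acid (ATRA) for 7 days. In co-treatment, 10 µM H2O2 was present together with ATRA for 7 days (3 control and 3 H2O2 libraries). In pre-treatment, 10 µM H2O2 was applied for 72 h and removed before the 7 days of ATRA (2 control and 3 H2O2 libraries). Controls received ATRA without H2O2. The comparison asks how each miRNA responds to oxidative stress applied during, or before, neuronal differentiation.

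miRNAs are cut from hairpin precursors, and either arm of a hairpin, named 5p or 3p, can be loaded into the silencing complex. Bases 2 to 8 of the mature strand, the seed, pair with target mRNAs and lower their output. miR-7 is known from brain, pituitary and pancreatic islets and is bound in neurons by the circular RNA CDR1as. miR-375 is an abundant miRNA of pancreatic islets and pituitary that restrains insulin secretion. miR-488 lies inside ASTN1, a gene for a neuronal membrane protein of glial-guided migration.

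The mature sequences are shown because the seeds, copy numbers and base composition of the 5 miRNAs bear on how their counts can be read. They are from RefSeq (GRCh38.p14), 5′ to 3′, with the seed in capitals, and all 5 names matched the table (hsa-miR-375 under its newer name hsa-miR-375-3p), as did 2263 of the 2576 names overall. hsa-miR-7-2-3p is added as the 1 further miRNA that shares a seed with any of them.
hsa-miR-7-5p: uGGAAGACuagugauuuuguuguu
hsa-miR-7-1-3p: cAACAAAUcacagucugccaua
hsa-miR-7-2-3p: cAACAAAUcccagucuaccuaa
hsa-miR-375: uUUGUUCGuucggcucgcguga
hsa-miR-488-3p: uUGAAAGGcuauuucuugguc
hsa-miR-488-5p: cCCAGAUAauggcacucucaa
The 5 seeds differ from each other. hsa-miR-7-1-3p and hsa-miR-7-2-3p differ at 4 of 22 positions outside their shared seed, written as A10C, G17A, A20U and U21A (base of hsa-miR-7-1-3p, position from 1 at the 5′ end, base of hsa-miR-7-2-3p). GC content ran from 33.3% in hsa-miR-7-5p, 38.1% in hsa-miR-488-3p, 40.9% in hsa-miR-7-1-3p and 47.6% in hsa-miR-488-5p to 54.5% in hsa-miR-375.

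The authors aligned the reads to hg19, which is GRCh37, and positions below are on that build. The sequence of hsa-miR-7-5p has 3 exact matches in the genome, in MIR7-1 (chr9:86584663-86584772, minus strand, overlapping an exon of an HNRNPK transcript), MIR7-2 (chr15:89155056-89155165, plus strand, with no annotated gene around it) and MIR7-3 (chr19:4770682-4770791, plus strand, in an intron of MIR7-3HG). Its count therefore pools these genes, and whether reads with several matches were split or dropped in counting is not given in the sources used here. Each of the other 4 has 1 exact match. hsa-miR-7-1-3p comes from MIR7-1 only. hsa-miR-375 comes from MIR375 (chr2:219866362-219866431, minus strand, with no annotated gene around it). Both miR-488 arms come from MIR488 (chr1:176998499-176998581, minus strand, in an intron of ASTN1). The MIR488 hairpin is shown whole because its arms are compared within each library below, with the 5p and then the 3p arm in capitals (RefSeq, GRCh38.p14, chr1:177029363-177029445, minus strand).
MIR488: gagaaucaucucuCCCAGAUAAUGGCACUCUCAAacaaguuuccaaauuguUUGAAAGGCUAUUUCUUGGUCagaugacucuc

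Libraries held from 5343953 to 8927582 counts. All 5 miRNAs were above 3 counts, taken as the detection limit, in every library, with hsa-miR-488-5p the lowest (90 to 431 counts) and hsa-miR-375 the highest (12427 to 37792 counts). The pre-treatment controls stood apart from each other. Replicate 1 held 1007 counts of hsa-miR-205-5p, an epithelial miRNA, against 32 in replicate 2, and 540 against 4 counts of the white blood cell miRNA hsa-miR-223-3p. For hsa-miR-375 it was replicate 2 that stood out, with 37792 counts against 19808 in replicate 1 and 27385 in the next highest library. The Pearson correlation over miRNAs of log2 CPM (counts-per-million) between these controls was 0.948, against 0.983 to 0.995 within the other groups, so the pre-treatment results of the 5 miRNAs are also given without either control. Of 6 neuronal miRNAs, 5 were above 3 counts in every library. hsa-miR-137 was the most abundant (77318 to 247992 counts), hsa-miR-9-5p stayed between 14 and 46 counts, and hsa-miR-124-3p, the best known neuronal miRNA, stayed between 0 and 7. The exocrine pancreas miRNAs hsa-miR-216a-5p, hsa-miR-216b-5p and hsa-miR-217 had at most 5 counts in any library. In bulk libraries such as these, fewer cells that express a miRNA and less of it per cell cannot be told apart.

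Levels are first set side by side over all 11 libraries, on 1 TMM scale (trimmed mean of M-values, which adjusts library totals for composition). hsa-miR-375 ranked 49th of 945 miRNAs by mean level, hsa-miR-7-5p 122nd, hsa-miR-7-1-3p 162nd, hsa-miR-488-3p 163rd and hsa-miR-488-5p 276th. The level of hsa-miR-375 was lowest in pre-treatment H2O2 libraries (1751 ± 45.5 CPM, SD, n = 3), followed by co-treatment controls (2625 ± 605, SD, n = 3), co-treatment H2O2 (2820.4 ± 304, SD, n = 3) and pre-treatment controls (4198 ± 1979, SD, n = 2). Only the lowest group was separate from its neighbour, and the other 3 overlapped in turn. hsa-miR-7-5p (group means of 342 to 569.5 CPM) and hsa-miR-488-3p (137 to 260.2 CPM) overlapped between all neighbouring groups. Both were lowest in co-treatment H2O2 and highest in pre-treatment H2O2.

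hsa-miR-7-1-3p was lowest in pre-treatment controls (102 ± 20.6 CPM, SD, n = 2), which were separate from co-treatment H2O2 (185 ± 27.8, SD, n = 3). These overlapped with pre-treatment H2O2 (206 ± 9.62, SD, n = 3), and co-treatment controls lay above (260.3 ± 16.9, SD, n = 3). For hsa-miR-488-5p the order was pre-treatment controls (16.8 ± 4.96 CPM, SD, n = 2), co-treatment controls (30.3 ± 5.32, SD, n = 3), pre-treatment H2O2 (48.2 ± 0.980, SD, n = 3) and co-treatment H2O2 (51.0 ± 4.21, SD, n = 3), with overlap only between both H2O2 groups. The controls of the experiments differed for 1 of the 5 miRNAs in edgeR's quasi-likelihood test, where 24.4% of 945 miRNAs did. This was hsa-miR-7-1-3p, with a log2 difference of −1.35 in pre-treatment controls against co-treatment controls (SE 0.29, FDR = 0.00367). With a correction for the trend of each library's counts with GC content, added after the data were seen, it was −0.56 (FDR = 0.0638), against −1.07 (FDR = 0.00325) in the same fit without it, over 358 miRNAs. Experiment, any batch between the experiments and any difference in culture length cannot be told apart. Whether pre-treatment controls were also cultured for a further 72 h before ATRA is not given in the sources used here. Without pre-treatment control replicate 1, hsa-miR-375 (log2 difference of 1.24, FDR = 0.00640) and hsa-miR-488-5p (−1.03, FDR = 0.0473) also differed, and without replicate 2 hsa-miR-7-5p did (−1.12, FDR = 0.0196).

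**Figure D1:**
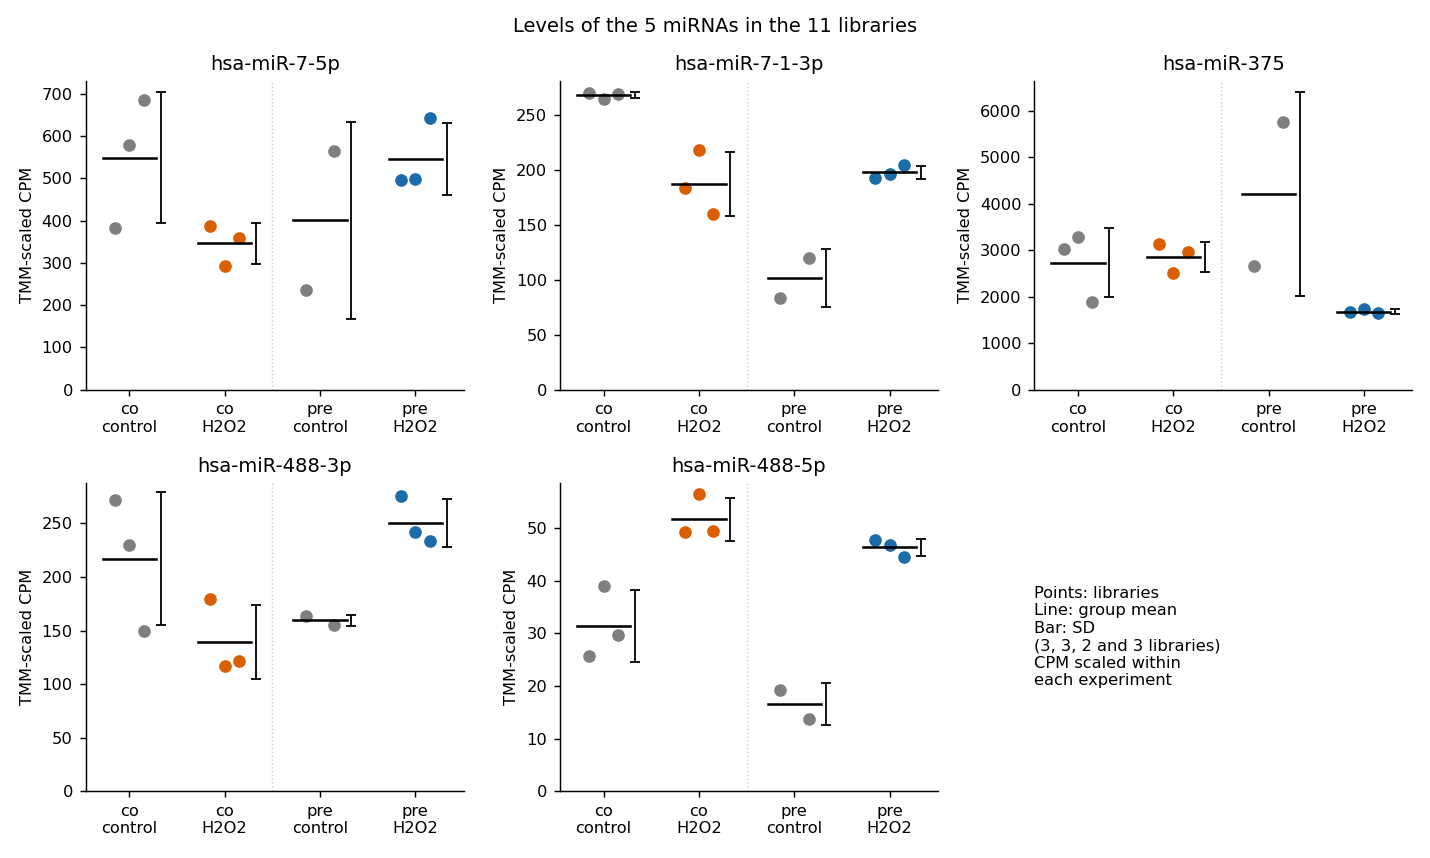
TMM-scaled CPM of the 5 miRNAs (vertical axes, from 0, scaled within each experiment) in co- and pre-treatment control and H2O2 libraries, with points for libraries, lines for group means and bars for SD. hsa-miR-488-5p lies higher in every H2O2 library than in the controls of its experiment, and hsa-miR-375 in pre-treatment H2O2 libraries (1648 to 1740 CPM) lies under both controls.

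In co-treatment, hsa-miR-488-5p rose and no other of the 5 miRNAs passed the test. The test was edgeR's exact test, with calls at a Benjamini-Hochberg false discovery rate (FDR) under 0.05 and a log2 fold change (log2FC) of more than 0.6 in either direction, and it called 26.2% of the 790 miRNAs tested, 10.6% as raised and 15.6% as lowered. Of the 5, 1 was called (raised), and 3 had an unadjusted p under 0.05, as did 40.1% of all tested. Control and H2O2 libraries did not overlap for 2 of the 5, against 41.6% of all miRNAs tested. The median log2FC of the 5 was −0.52, and that of all tested was −0.04. Values below are TMM-scaled CPM within the experiment, in replicate order.

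hsa-miR-7-5p had 382, 579.7 and 686 CPM in controls and 387, 293 and 359.6 in H2O2 libraries, so that the lowest control lay among the H2O2 libraries. The log2FC was −0.66 (SE 0.28, FDR = 0.0799, edgeR's exact test). hsa-miR-7-1-3p had 271, 265 and 269.9 CPM in controls and 184, 218 and 160.5 in H2O2 libraries. Its controls lay close together and above all 3 H2O2 libraries, but the log2FC of −0.52 (SE 0.26) did not pass (FDR = 0.142, edgeR's exact test). hsa-miR-375 had 3035, 3286 and 1886 CPM in controls and 3126, 2503 and 2956 in H2O2 libraries. Its groups overlapped, and the log2FC was 0.06, with a 95% confidence interval (CI) of −0.47 to 0.60 (FDR = 0.898, edgeR's exact test). Without control replicate 3 it was −0.05.

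hsa-miR-488-3p had 272, 229.7 and 149 CPM in controls and 179, 117 and 122 in H2O2 libraries, with H2O2 replicate 1 above the lowest control. Its log2FC was −0.64 (SE 0.29, FDR = 0.104, edgeR's exact test). hsa-miR-488-5p, the opposite arm of the same hairpin, had 25.7, 39.0 and 29.7 CPM in controls and 49.2, 56.4 and 49.5 in H2O2 libraries. Every H2O2 library lay above every control, and the log2FC was 0.71 (SE 0.27, FDR = 0.0495, edgeR's exact test). This FDR is close to the threshold. It was 0.0641 in the quasi-likelihood test, which called 22.9% of all tested, and 0.0230 in DESeq2. With 1 library left out, it was 0.140 without control replicate 1, 0.0755 without control replicate 3, 0.0966 without H2O2 replicate 1 and 0.109 without H2O2 replicate 3, at a log2FC of 0.69 to 0.79. GC correction left this call (log2FC = 0.85, FDR = 0.0449, quasi-likelihood test). That fit took in only the 364 miRNAs with a sequence and a mean of at least 10 CPM, so 0.85 is not to be set against 0.71. Over all alternatives that kept every library, the log2FC ran from 0.71 to 0.99 and the FDR from 0.00222 to 0.144. The same correction turned the direction of the other 4, from −0.41 to 0.21 for hsa-miR-7-5p, from −0.29 to 0.07 for hsa-miR-7-1-3p, from 0.29 to −0.11 for hsa-miR-375 and from −0.43 to 0.04 for hsa-miR-488-3p, each against the same fit without it.

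The summed level of the 6 neuronal miRNAs moved with H2O2 here too, from 30436 to 37913 CPM of the library total in controls to 15546 to 19050.1 in H2O2 libraries, with most of it from hsa-miR-137. That of the 4 white blood cell miRNAs was 17.4 to 23.3 CPM and then 10.5 to 17.0, but its members did not move together. In counts, hsa-miR-142-5p went from 25, 40 and 46 to 20, 7 and 21, and hsa-miR-142-3p from 90, 67 and 98 to 87, 24 and 40. By contrast, hsa-miR-223-3p went from 7, 4 and 3 to 15, 4 and 35, and hsa-miR-150-5p from 13, 36 and 10 to 23, 21 and 30. The part of these in the results was not tested.

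In pre-treatment, hsa-miR-375 fell and hsa-miR-488-5p rose, and the other 3 did not pass. The same test called 15.3% of the 868 miRNAs tested, 5.41% as raised and 9.91% as lowered. Of the 5 miRNAs, 2 were called, and 3 had an unadjusted p under 0.05, as did 28.6% of all tested. Groups did not overlap for 4 of the 5, against 46.0% of all tested. The median log2FC of the 5 was 0.65, and that of all tested was −0.19. In the quasi-likelihood test, which called 1.96% of all tested, none of the 5 passed at FDR under 0.05, while 4 had an interval that left out 0, which corresponds to an unadjusted p under 0.05, reached by 29.3% of all tested.

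hsa-miR-7-5p had 235 and 566 CPM in controls and 496, 499.6 and 644 in H2O2 libraries. The controls lay on either side of the lowest H2O2 libraries, and the log2FC of 0.45 (SE 0.41, FDR = 0.569, edgeR's exact test) became −0.0035 without control replicate 1 and 1.19 (FDR = 1.97e-05) without control replicate 2. The fits left with 1 control assume that it varies like the H2O2 libraries. With GC correction it was −0.06, against 0.31 in the same fit without it. hsa-miR-7-1-3p had 83.4 and 120.3 CPM in controls and 193, 196 and 205 in H2O2 libraries. All 3 H2O2 libraries lay above both controls, at a log2FC of 0.96 (SE 0.30) that did not pass (FDR = 0.0849, edgeR's exact test). It was 0.77 without control replicate 1 (FDR = 0.00535) and 1.22 without control replicate 2 (FDR = 7.53e-06). DESeq2 (FDR = 0.0240) and the exact test scaled by library size (FDR = 0.0357) called it. Over all alternatives that kept every library, GC correction among them, its log2FC ran from 0.55 to 1.11 and its FDR from 0.0231 to 0.513.

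hsa-miR-375 had 2659 and 5762 CPM in controls and 1662, 1739.6 and 1648 in H2O2 libraries. The H2O2 libraries were close to each other and under both controls, which differed from each other by more than the nearer of them did from the H2O2 libraries. The log2FC was −1.32 (SE 0.35, FDR = 0.0168, edgeR's exact test). Its size depended on the control, at −1.73 without replicate 1 and −0.69 without replicate 2. The quasi-likelihood test gave an FDR of 0.0660, DESeq2 0.0101, and the exact test with 1 H2O2 library left out 0.175 to 0.211 at a log2FC of −1.29 to −1.26. With GC correction the log2FC was −1.14 (FDR = 0.0849) against −1.47 without it.

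hsa-miR-488-3p had 163 and 155.5 CPM in controls and 275, 242 and 233 in H2O2 libraries. These groups were separate, at a log2FC of 0.65 (SE 0.26, FDR = 0.234, edgeR's exact test), which was 0.73 without control replicate 1 (FDR = 0.00855), 0.59 without replicate 2 and 0.10 with GC correction against 0.41 without it. hsa-miR-488-5p had 19.3 and 13.7 CPM in controls and 47.7, 46.8 and 44.4 in H2O2 libraries. Every H2O2 library was at more than 2 times the level of either control. The log2FC was 1.48 (SE 0.33, FDR = 0.0136, edgeR's exact test), 1.80 without control replicate 1 and 1.23 without replicate 2. It was 1.51 to 1.54 with 1 H2O2 library left out, where the FDR was 0.136 to 0.172, and the quasi-likelihood test gave an FDR of 0.0559. With GC correction it was 1.25, against 1.21 without it.

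**Figure D2:**
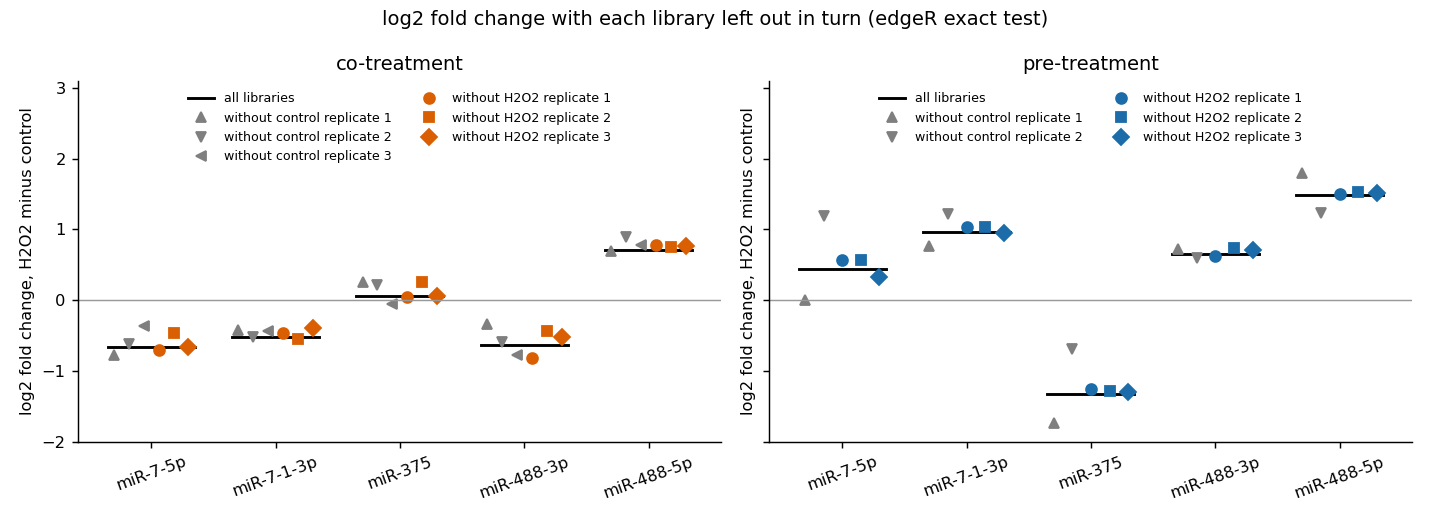
log2FC of H2O2 against control (vertical axis) of the 5 miRNAs in co-treatment (left) and pre-treatment (right), with all libraries (line) and with each library left out (symbols). In pre-treatment hsa-miR-7-5p goes from −0.0035 to 1.19 and hsa-miR-375 from −1.73 to −0.69 with the control left out, while leaving out an H2O2 library moves hsa-miR-375 and hsa-miR-488-5p little.

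Several marker lists also moved with H2O2 in pre-treatment. In controls and then H2O2 libraries, the summed level of the 6 neuronal miRNAs was 12352 to 20221 and 28826 to 34755 CPM of the library total, with most of it from hsa-miR-137. In counts, hsa-miR-137, hsa-miR-128-3p and hsa-miR-9-3p were higher in every H2O2 library than in both controls. Groups overlapped for hsa-miR-218-5p (300 and 576, then 432, 467 and 247), hsa-miR-9-5p (25 and 35, then 30, 34 and 41) and the scarce hsa-miR-124-3p. The sum of the 2 liver miRNAs, nearly all hsa-miR-122-5p, was 99.3 to 235 and 546.5 to 786 CPM, and that of the 4 red blood cell miRNAs was 2.16 to 3.43 and 10.4 to 14.5. Of the 3 muscle miRNAs, hsa-miR-133a-3p was at 0 counts in every library, and the sum of the others was 1.59 to 3.84 CPM in controls and 6.19 to 6.62 in H2O2 libraries. The 4 white blood cell and 4 epithelial miRNAs were high in control replicate 1 (121 and 209 CPM) against 12.9 and 53.9 in replicate 2. The part of these in the results was not tested. For hsa-miR-375 and hsa-miR-488-5p, all H2O2 libraries lay on the same side of both controls. That their direction was kept without either control follows from this and tests nothing about these lists.

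The responses in the experiments differed for 3 of the 5 miRNAs, but none of the 5 passed the test with GC correction. This was tested as an interaction, the pre-treatment minus the co-treatment log2FC, in 1 quasi-likelihood fit of all 11 libraries, where 27.3% of 945 miRNAs passed at FDR under 0.05. The difference was 1.51 for hsa-miR-7-1-3p (SE 0.37, FDR = 0.00933), whose log2FC was negative in co-treatment and positive in pre-treatment. It was −1.37 for hsa-miR-375 (SE 0.41, FDR = 0.0227) and 1.30 for hsa-miR-488-3p (SE 0.41, FDR = 0.0309). hsa-miR-7-5p had a difference of 1.16 (SE 0.48, FDR = 0.0869). hsa-miR-488-5p, the miRNA that rose in both experiments, had a difference of 0.77 with a 95% CI of −0.11 to 1.64 (FDR = 0.185).

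GC correction of this fit was added after the data were seen and took in 358 miRNAs with a sequence and a mean of at least 10 CPM. The difference of hsa-miR-7-1-3p was then 0.52 (95% CI −0.05 to 1.10, FDR = 0.174), against 1.12 (FDR = 0.00927) in the same fit without the correction. That of hsa-miR-375 was −0.9998 (95% CI −1.88 to −0.12, FDR = 0.1001), against −1.73 (FDR = 0.00658), and that of hsa-miR-488-3p was 0.08 (FDR = 0.903), against 0.89 (FDR = 0.116). hsa-miR-7-5p turned to −0.25 (FDR = 0.609), and hsa-miR-488-5p was at 0.41 (FDR = 0.446). The quasi-likelihood test called 77 of the 358 miRNAs with the correction and 152 without it.

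Under the 15 other alternatives, which changed the tool, the scaling or the filter or left out 1 library, without GC correction, the difference of hsa-miR-7-1-3p passed each time, at 1.09 to 1.74 with FDRs of 0.000381 to 0.0393. That of hsa-miR-375 did not pass without co-treatment control replicate 3, co-treatment H2O2 replicate 1, pre-treatment H2O2 replicate 1 or 3, or pre-treatment control replicate 2 (FDR = 0.0504 to 0.0761), and without the last it was −0.77. For hsa-miR-488-3p it did not pass without any 1 of 7 of the 11 libraries or among miRNAs with a mean of at least 10 CPM (FDR = 0.0595 to 0.136), and it was 0.85 in the last case.

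**Figure D3:**
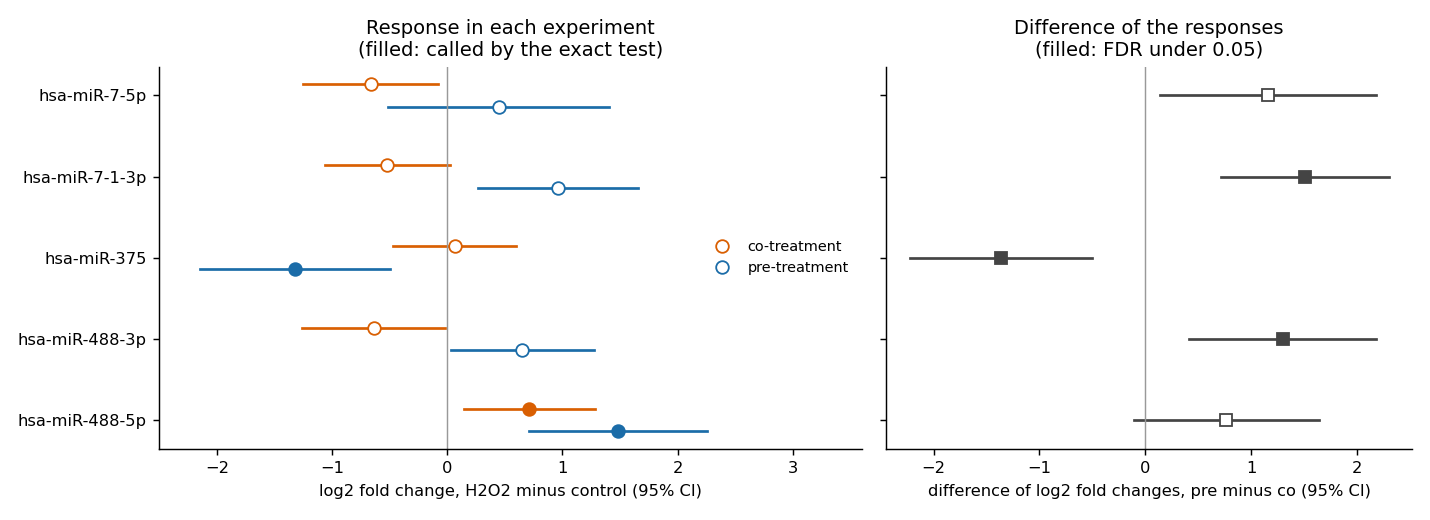
Left, log2FC of H2O2 against control for the 5 miRNAs in co-treatment (orange) and pre-treatment (blue) with 95% CI from the quasi-likelihood fit, filled where the exact test called the miRNA. Right, the pre-treatment minus co-treatment log2FC without GC correction, with 95% CI, filled at FDR under 0.05, from −1.37 for hsa-miR-375 to 1.51 for hsa-miR-7-1-3p.

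Both arms of miR-488 are cut from 1 hairpin, and their ratio within a library needs no scaling. The ratio of hsa-miR-488-3p to hsa-miR-488-5p counts was 10.6, 5.89 and 5.02 in co-treatment controls and 3.64, 2.07 and 2.46 in H2O2 libraries. In pre-treatment it was 8.44 and 11.3 in controls and 5.77, 5.18 and 5.25 in H2O2 libraries. The 3p arm was thus the more abundant in every library, and the ratio was lower in every H2O2 library than in any control of the same experiment. How often the arm ratios of other hairpins separate in this way was not tested. This ratio also holds the same hsa-miR-488-5p counts as the calls above. The mean log2 ratio with H2O2 minus that of controls was −1.36 in co-treatment and −0.85 in pre-treatment, ratios of 0.391 and 0.553 to the controls. The exact two-sided permutation test gave p = 0.1 in each experiment, the smallest value that 3 against 3 or 3 against 2 libraries allow, and 0.2 after Benjamini-Hochberg adjustment over the 6 tests of ratios made here and below. With any 1 library left out the change stayed between −1.59 and −1.04 in co-treatment and between −1.07 and −0.64 in pre-treatment. The lower ratio went with a rise of the 5p arm in both experiments and with opposite signs of the 3p arm log2FC (−0.64 and 0.65). The 5p arm has the higher GC content of the pair. With GC correction the log2FC of the 3p and 5p arm was 0.04 and 0.85 in co-treatment and 0.10 and 1.25 in pre-treatment. The log2FC of the 3p arm was thus below that of the 5p arm with the correction too.

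The ratio of hsa-miR-7-5p to hsa-miR-7-1-3p showed no such separation. It was 1.41, 2.19 and 2.54 in co-treatment controls and 2.11, 1.34 and 2.24 in H2O2 libraries, and the mean log2 ratio differed by −0.10 (p = 0.6, exact permutation test, 0.72 adjusted). In pre-treatment it was 2.82 and 4.71 in controls and 2.56, 2.54 and 3.15 in H2O2 libraries, a difference of −0.41 (p = 0.3, exact permutation test, 0.45 adjusted). hsa-miR-7-5p reads can come from 3 hairpins, so this is not the arm ratio of MIR7-1 alone.

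hsa-miR-7-2-3p, with the seed of hsa-miR-7-1-3p, comes from MIR7-2 and was much less abundant, at 10 to 67 counts. In co-treatment its log2FC was −0.48 (SE 0.33, FDR = 0.308, edgeR's exact test). In pre-treatment it had 26 and 60 counts in controls and 22, 10 and 17 in H2O2 libraries, at a log2FC of −1.60 (SE 0.54, FDR = 0.0594, edgeR's exact test) that was −2.09 without control replicate 1 and −0.77 without replicate 2. Its direction there was the opposite of that of hsa-miR-7-1-3p. The ratio of hsa-miR-7-1-3p to hsa-miR-7-2-3p counts was 23.9 and 13.2 in pre-treatment controls and 75.1, 144.9 and 90.8 in H2O2 libraries, so that every H2O2 library lay above both controls. The mean log2 ratio was 2.46 higher with H2O2, with p = 0.1, the smallest the exact permutation test can give here, 0.2 adjusted, and 2.04 to 2.88 with 1 library left out. In co-treatment the groups overlapped, with ratios of 29.6 to 43.7 in controls and 23.7 to 44.4 in H2O2 libraries and a difference of −0.06 (p = 1, exact permutation test, before and after adjustment). This ratio was chosen after its values were seen.

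**Figure D4:**
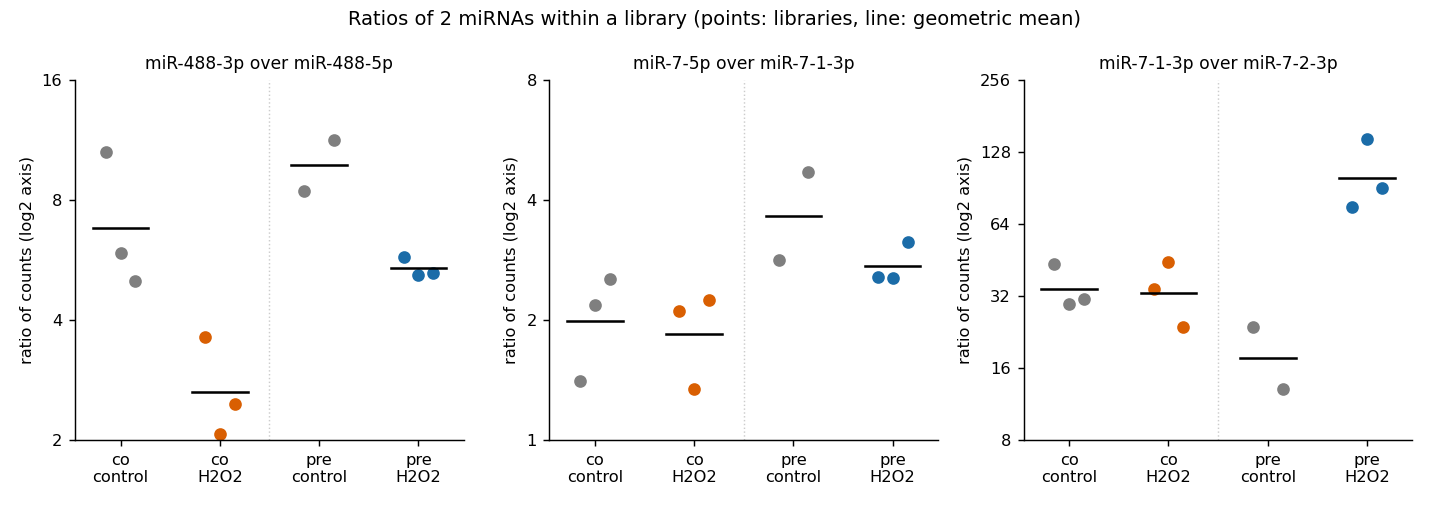
Ratios of the counts of 2 miRNAs within each library (vertical axes, log2 spacing) by group, with points for libraries and lines for geometric means. The miR-488 arm ratio is lower in all H2O2 libraries than in the controls of the same experiment, and the ratio of both miR-7 3p arms is 75.1 to 144.9 in pre-treatment H2O2 libraries against 13.2 and 23.9 in their controls.

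A list of 12 further miRNAs of neurons and endocrine cells, which holds hsa-miR-7-2-3p and arms of miR-129, miR-153 and miR-708, was compared in the same way, and 10 entered the test in each experiment. hsa-miR-153-3p and hsa-miR-204-5p were at most at 2 counts and were not tested. In co-treatment 2 of the 10 were called, both lowered, a share close to that of all miRNAs tested (26.2% called, 15.6% lowered). hsa-miR-153-5p had 79.6, 49.0 and 103 CPM in controls and 30.8, 30.5 and 26.1 in H2O2 libraries, a log2FC of −1.40 (SE 0.30, FDR = 0.000298, edgeR's exact test) that passed under all 14 alternatives run. These leave out GC correction, because no sequence was matched to its name. hsa-miR-708-3p fell by 0.87 on the log2 scale (FDR = 0.0304), with controls of 243, 291 and 417 CPM and H2O2 libraries of 142, 242.5 and 137. It did not pass under 12 of 17 alternatives. Among them, the FDR was 0.0619 to 0.242 without control replicate 1 or 3 or H2O2 replicate 1 or 3, 0.0879 with library size scaling, 0.0616 without the low-count filter and 0.126 among miRNAs with a mean of at least 10 CPM. The log2FC was −0.53 without control replicate 3 and −0.58 in the last case.

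In pre-treatment 4 of the 10 were called, 3 lowered and 1 raised, where 15.3% of all tested were called. Of the 10, hsa-miR-129-5p and hsa-miR-383-5p passed the low-count filter through the controls alone, so the call of hsa-miR-383-5p adds nothing to this count. hsa-miR-129-1-3p had 25.0 and 111 CPM in controls and 8.30, 9.62 and 7.96 in H2O2 libraries, a log2FC of −2.98 (SE 0.60, FDR = 0.000436, edgeR's exact test) that was −3.64 without control replicate 1 and −1.56 without replicate 2. hsa-miR-129-2-3p fell from 41.2 and 36.9 CPM to 14.2, 14.4 and 9.81, a log2FC of −1.61 (SE 0.32, FDR = 0.00492, same test), which was −1.48 without control replicate 1 and −1.71 without replicate 2. hsa-miR-383-5p had 11 and 14 counts in controls and 2 in each H2O2 library, a ratio of rates of 0.147 with an exact 95% counting interval of 0.0494 to 0.367, and its H2O2 libraries lay below 3 counts. The interval is taken on counts summed over libraries. It covers counting error only, leaves out variation between libraries, and is no test of a fall. hsa-miR-95-3p rose from 919 and 1434 CPM to 2417, 2470.3 and 2359, a log2FC of 1.04 (SE 0.29, FDR = 0.0421, same edgeR test), which was 0.80 without control replicate 1 and 1.37 without replicate 2. None of these 4 calls passed in the exact test with any 1 H2O2 library left out (FDR = 0.0552 to 0.234), and none passed in the quasi-likelihood test (FDR = 0.0520 to 0.0747). hsa-miR-708-5p, the most abundant of the list, had log2FCs of 0.25 (FDR = 0.592) in co-treatment and 0.81 (FDR = 0.0872) in pre-treatment, where it was 0.81 and 0.82 without control replicate 1 and 2. The responses differed between the experiments for 6 of the 10, where 27.3% of 945 miRNAs differed. The 6 include hsa-miR-383-5p, with its 2 counts in each pre-treatment H2O2 library.

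**Figure D5:**
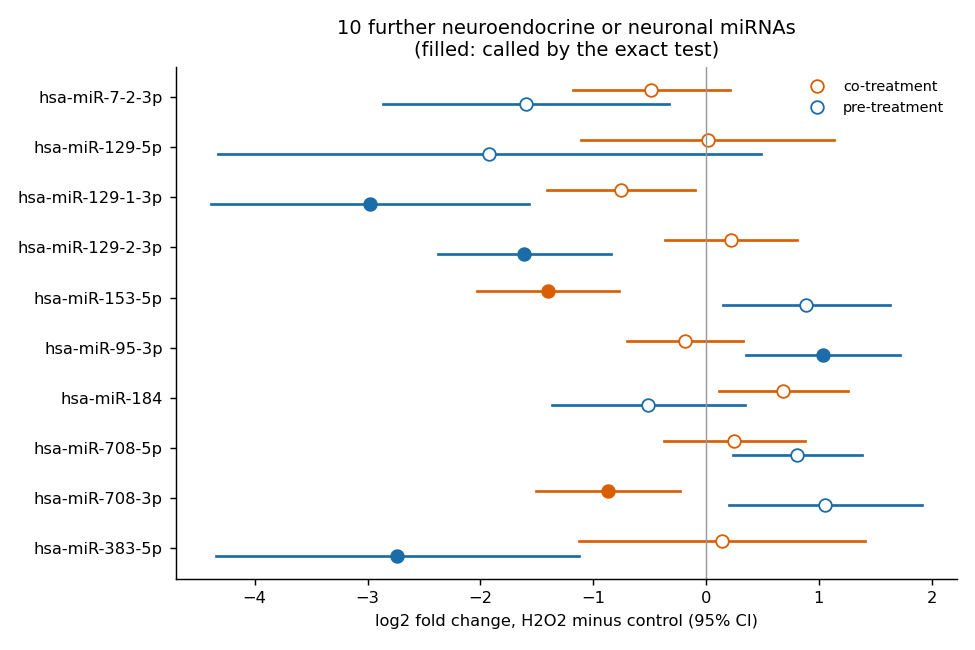
log2FC of H2O2 against control (horizontal axis) with 95% CI from the quasi-likelihood fit for 10 further neuroendocrine or neuronal miRNAs in co-treatment (orange) and pre-treatment (blue), filled where the exact test called the miRNA. In co-treatment the lowest value is that of hsa-miR-153-5p (−1.40) and in pre-treatment that of hsa-miR-129-1-3p (−2.98).

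The 5 miRNAs did not share 1 profile. The root mean square difference of their centred log2 CPM over the 11 libraries ran from 0.478 between hsa-miR-7-5p and hsa-miR-7-1-3p to 1.01 between hsa-miR-375 and hsa-miR-488-5p, and it was 0.731 between both arms of miR-488. Among 404 other miRNAs with a mean of at least 10 CPM, the nearest profiles were those of hsa-miR-10b-3p and hsa-miR-27b-3p for hsa-miR-7-5p (0.172 and 0.202) and of hsa-miR-130b-3p and hsa-miR-194-5p for hsa-miR-7-1-3p (0.179 and 0.181). hsa-miR-181a-2-3p and hsa-miR-1306-3p lay nearest to hsa-miR-375 (0.267 and 0.292), hsa-miR-628-5p and hsa-miR-190a-5p to hsa-miR-488-3p (0.338 and 0.353), and hsa-miR-107 and hsa-miR-641 to hsa-miR-488-5p (0.265 and 0.294). These distances are descriptions over libraries that share depth, batch and treatment.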

How the data were processed

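SH-SY5Y small RNA was sequenced by the authors with the QIAseq miRNA kit. The deposited values are read counts per mature miRNA, made by the authors with Cutadapt 2.10, Bowtie2 2.4.1 on hg19 and HTSeq 0.7.2, without normalization. Use of molecular identifiers is not given in the sources used here, so counts are treated as reads, and detection limits cover counting error only. The authors' deposited fold changes and p-values (edgeR) were not used.

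Groups came from the sample titles. The study describes biological triplicates. From pre-treatment, 1 outlying sample was left out by the authors, and the 2 pre-treatment controls available were both used. H2O2 was compared with control by the exact test of edgeR 4.0.16 (R 4.3.3) after TMM scaling, at FDR under 0.05 and absolute log2FC above 0.6, as in the study's methods, on miRNAs above 0.936 CPM in at least 3 co-treatment or 0.721 CPM in at least 2 pre-treatment libraries. SE and CI came from the quasi-likelihood fit, which over all 11 libraries also tested the interaction. Arm ratios had 0.5 added to each count and an exact two-sided permutation test. Totals were 5343953 to 8927582 counts per library. Alternatives were DESeq2 1.42.0, other scalings, filters and thresholds, a replicate block, GC correction and each library left out. Fits left with 1 control assume that it varies like the H2O2 libraries. Tests were also run on simulated data with known changes, and the outcome is not reported here. The members and lists were chosen with earlier results of these data known. The miRNAs named are the 5 members, any sharing a seed, listed companions that were called or are among the 2 most abundant, and the 2 nearest profiles of each member.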

Additional observations from a re-analysis of the deposited data

Results flagged for a closer look

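The log2FC of H2O2 against control differed between pre-treatment and co-treatment, by the interaction in edgeR's quasi-likelihood fit of all 11 libraries at FDR under 0.05, for 3 of the 5 miRNAs and 6 of the 10 listed companions tested, where 27.3% of 945 miRNAs did. Each value is the pre-treatment minus the co-treatment log2FC.

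It was 1.51 for hsa-miR-7-1-3p, −1.37 for hsa-miR-375 and 1.30 for hsa-miR-488-3p. None of these 3 passed with GC correction, where they were 0.52, −0.9998 and 0.08 (FDR = 0.174, 0.1001 and 0.903). Of the companions, the difference was positive for hsa-miR-153-5p (2.33), hsa-miR-708-3p (1.97) and hsa-miR-95-3p (1.25), whose FDRs were 0.00365, 0.0105 and 0.0209. It was negative for hsa-miR-129-1-3p (−2.16), hsa-miR-129-2-3p (−1.83) and hsa-miR-383-5p (−2.86), whose FDRs were 0.0239, 0.00674 and 0.0321. Without pre-treatment control replicate 2, the difference of hsa-miR-129-1-3p was −0.80 (FDR = 0.198), and without pre-treatment control replicate 1 that of hsa-miR-95-3p was 0.80 (FDR = 0.115). The difference of hsa-miR-383-5p rests on 2 counts in each pre-treatment H2O2 library, below the detection limit of 3 counts, and on controls through which alone it passed the filter in pre-treatment. With GC correction that of hsa-miR-95-3p was −0.04 (FDR = 0.926), while hsa-miR-129-1-3p, hsa-miR-129-2-3p and hsa-miR-708-3p passed, at −3.01, −2.39 and 1.47. hsa-miR-153-5p and hsa-miR-383-5p were not in that fit. Experiment, any batch between the experiments and any difference in culture length cannot be told apart.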

How the results depend on the processing

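Of 165 alternative values of the log2FC of the 5 miRNAs within the experiments, 120 kept their direction and their side of the threshold, 25 kept the direction and lost the call, 8 gained one and 12 turned sign. Most of the 165 belong to miRNAs that were not called. The call of hsa-miR-488-5p in co-treatment was lost in 9 of its 17 alternatives. In pre-treatment, those of hsa-miR-375 and hsa-miR-488-5p were each lost in 8 of 16. The limits are the 2 pre-treatment controls, which differ from each other, and GC correction, which turned 4 directions in co-treatment and left none of the 5 differences between the experiments past the threshold. Replicate numbers are not said to pair the samples. Deviations of same-numbered libraries from their group means correlated at 0.04, −0.16 and −0.16 in co-treatment and at 0.22 and −0.05 in pre-treatment over miRNAs. Deviations from means of so few libraries are tied to each other, so these values cannot show whether the samples were paired. With the replicate block, co-treatment calls went from 207 to 111 and pre-treatment calls from 133 to 15. The FDR under the block was 0.0988 for hsa-miR-488-5p in co-treatment, 0.278 in pre-treatment, and 0.363 for hsa-miR-375 in pre-treatment.

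In co-treatment, 1 fit of both experiments called 84 miRNAs. Over miRNAs with a sequence, 130 were called without and 24 with GC correction, and 0 with the replicate block and GC correction together (quasi-likelihood test, 81 at an unadjusted p under 0.05). In pre-treatment, the quasi-likelihood test called 17, no low-count filter 61, miRNAs with a sequence 63, GC correction 41, and the replicate block with GC correction 0 (quasi-likelihood test, 53 at an unadjusted p under 0.05). Fewer miRNAs were tested over those with a sequence. For the interaction, 152 were called over miRNAs with a sequence and 77 with GC correction, and between the controls 153 and 76, both added after the data were seen. The cause of the other changes was not tested. With each library left out, the calls ranged from 98 to 279 in co-treatment, from 9 to 449 in pre-treatment, from 164 to 444 for the interaction and from 149 to 439 between the controls.

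With GC correction, alone and then with the replicate block, the log2FC turned in co-treatment to 0.21 and 0.24 for hsa-miR-7-5p, 0.066 and 0.060 for hsa-miR-7-1-3p, −0.11 and −0.088 for hsa-miR-375 and 0.035 and 0.079 for hsa-miR-488-3p, and in pre-treatment to −0.060 and −0.14 for hsa-miR-7-5p. hsa-miR-95-3p in co-treatment turned to 0.58 and 0.59 with these, to 0.10 at a mean of at least 10 CPM and to 0.064 over miRNAs with a sequence. GC correction turned the interaction to −0.25 for hsa-miR-7-5p and −0.036 for hsa-miR-95-3p, and the difference between the controls to 0.59 for both hsa-miR-7-5p and hsa-miR-488-3p. With each library left out, log2FC ranged from −0.053 to 0.26 for hsa-miR-375, from −0.24 to 0.043 for hsa-miR-95-3p and from −0.023 to 0.62 for hsa-miR-383-5p in co-treatment, from −0.0035 to 1.19 for hsa-miR-7-5p in pre-treatment, and from −1.12 to 0.22 for hsa-miR-7-5p between the controls. The co-treatment change in log2 ratio ranged from −0.35 to 0.13 for hsa-miR-7-5p over hsa-miR-7-1-3p and from −0.27 to 0.18 for hsa-miR-7-1-3p over hsa-miR-7-2-3p.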
